A study of Rattus norvegicus with 3 samples.

Results

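The MAPK phosphatases and Sprouty feedback genes are a group of 10 genes whose RNA level is often read as a sign of signalling through the kinases ERK, p38 and JNK. They were chosen by gene symbol, namely Dusp1, Dusp2, Dusp4, Dusp5, Dusp6, Dusp10, Spry1, Spry2, Spry4 and Spred1, and each symbol matched 1 row among the 32883 genes of the deposited tables. Retinal RNA of Sprague-Dawley rats, depleted of ribosomal RNA, was sequenced at postnatal day 60 in 3 libraries. The CTL library is labelled as without treatment, although the protocol describes a sham group whose eyes were cannulated at only 2.66 kPa, and which of these descriptions holds for CTL was not settled. For the HIOP library, the pressure in the eye was raised through a needle in the anterior chamber to 110 mmHg for 60 min, which stops retinal blood flow, and the retina was taken after 12 h of reperfusion. The HIOP_GSK library had the same procedure, with a drug named only as GSK given into the anterior chamber 24 h ahead of the ischemia. The rats were anesthetized with chloral hydrate, no library from an eye given vehicle alone is described, and the number of animals behind each library is not given in the sources used here.

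The total counts were 16090064 in CTL, 17221510 in HIOP and 15132754 in HIOP_GSK. Rod genes, which define retina, were present at high levels in every library. With 1 library per group, no difference could be tested against replicate spread and no p-value is given. Each fold is a ratio of counts scaled to library size, with a 95% exact interval that covers counting error only. In whole-tissue RNA, fewer cells of a type and less RNA per cell cannot be told apart.

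Mitogen-activated protein kinases (MAPK) are switched on by phosphorylation downstream of growth factor receptors, cytokines and cell stress. Dual-specificity phosphatases of the DUSP family remove the activating phosphates, and Sprouty and Spred proteins act higher up, between receptor, RAS and RAF. Many of these genes are themselves induced by the pathway that they restrain, which makes them negative feedback genes. In the retina, injury is known to activate ERK in Müller glia, the main glial cell of that tissue.

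Dusp5, Dusp6 and Spry2 held nearly the whole difference in the summed level of the 10 genes between HIOP and CTL. Dusp6, Spry2 and Dusp5 were 8.83-fold, 7.06-fold and 4.55-fold higher in HIOP than in CTL. Dusp2 was also past 2-fold, but on 1 and 12 counts. All 10 genes passed a filter on low values, Dusp2 only through HIOP_GSK, and 4 of them were higher in HIOP by 2-fold or more, compared with 9.0% of the 15543 genes that reached 1 CPM (a count scaled to library size) in some library. None was lower by 2-fold or more (0 of 10), compared with 8.04%. The 10 genes were chosen with earlier results of these data known. The median log2 ratio was 0.38 over the 10 genes and 0.004 over all compared genes. In HIOP_GSK the same 3 genes were lower than in HIOP, by 1.12-fold to 1.51-fold, and were 4.04-fold to 6.61-fold above CTL, or 3.70-fold to 5.67-fold on deposited TPM, a value scaled for transcript length.

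**Figure D1:**
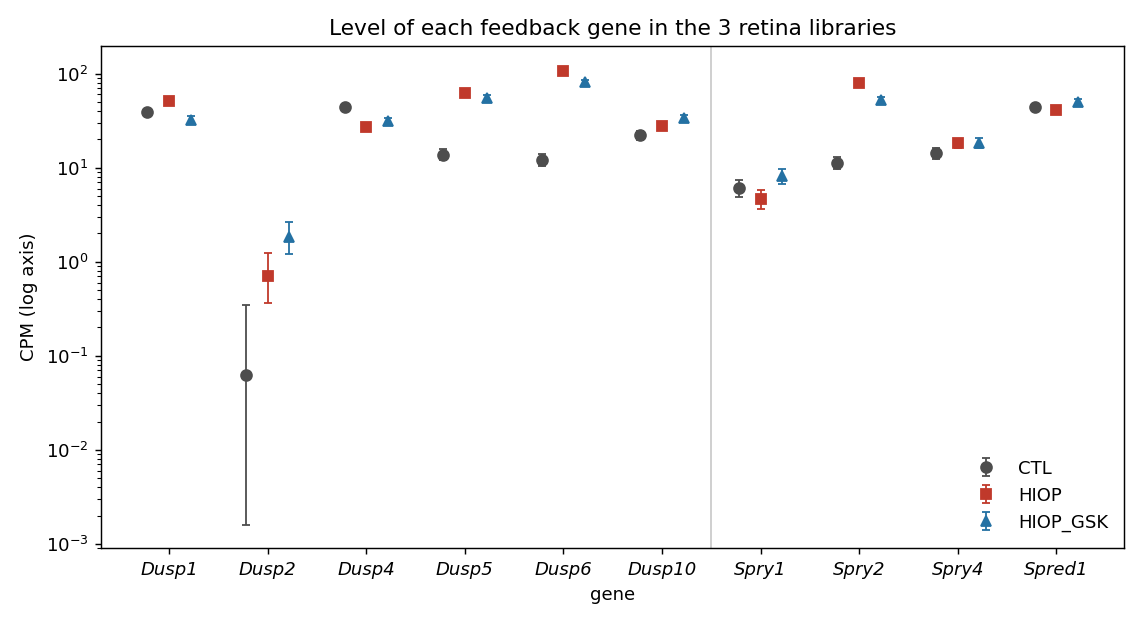
Level of each of the 10 genes in CPM (log axis) in the CTL, HIOP and HIOP_GSK libraries. Points are single libraries and bars are 95% exact Poisson intervals of the count. Dusp5, Dusp6 and Spry2 lie far higher in both injured libraries than in CTL, while Dusp2 is close to the detection limit.

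Deposited TPM, which is scaled for transcript length, allows the genes to be set beside each other. The 10 genes summed to 115 TPM in CTL, 216 TPM in HIOP and 190 TPM in HIOP_GSK. Dusp5, Dusp6 and Spry2 together, a grouping made after their values were seen, gave 22.7, 127 and 97.4 TPM. The other 7 genes summed to 92.6, 89.2 and 92.5 TPM, so that their total differed little between libraries. Scaled counts gave the same picture, with 37.2, 250 and 189 CPM for the 3 genes and 169, 170 and 175 CPM for the other 7.

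**Figure D2:**
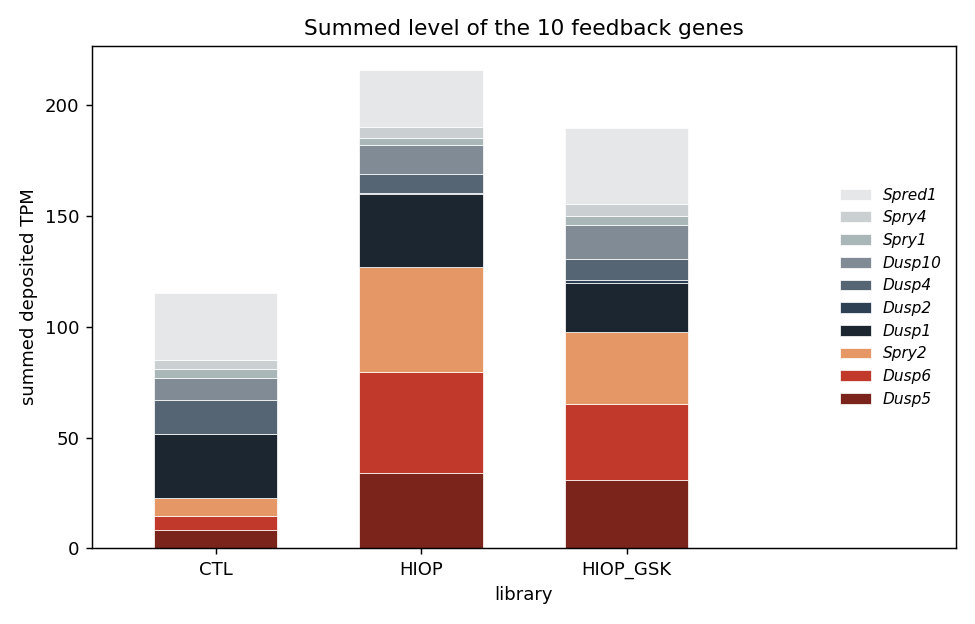
Summed deposited TPM of the 10 genes in each library, stacked by gene, with 1 library per bar and no error bar because there are no replicates. The red and orange segments of Dusp5, Dusp6 and Spry2 grow from 22.7 TPM in CTL to 127 TPM in HIOP and 97.4 TPM in HIOP_GSK, and the grey to black segments of the other 7 genes sum to 92.6, 89.2 and 92.5 TPM.

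The order of the genes by TPM differed between the libraries. In CTL, Spred1 (30.3 TPM) and Dusp1 (28.7 TPM) led, and their counting intervals overlapped. They were followed by Dusp4 at 15.3, Dusp10 at 10.1, Dusp5 at 8.32, Spry2 at 8.28, Dusp6 at 6.09, Spry4 at 4.17, Spry1 at 3.99 and Dusp2 at 0.07 TPM. Among neighbours in that order, Dusp10 and Dusp5, Dusp5 and Spry2, and Spry4 and Spry1 also overlapped. In HIOP, Spry2 (47.2 TPM) and Dusp6 (45.6 TPM) led with overlapping intervals, and Dusp5 (34.1 TPM) and Dusp1 (33.2 TPM) overlapped behind them. Spred1, first in CTL, was the fifth gene in HIOP at 25.9 TPM. In HIOP_GSK the first 4 genes, Dusp6 (34.5 TPM), Spred1 (34.4 TPM), Spry2 (32.2 TPM) and Dusp5 (30.8 TPM), each overlapped with the next. Dusp2 was last in every library. These intervals take the relative error of the counts, and replicate spread could not be added.

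Promoter sequences are shown for the 3 genes with the highest well-counted folds and for Dusp1, a classic immediate early gene, as a contrast. RefSeq promoters of the rat assembly GRCr8 run from 250 bases before to 50 bases after the annotated start, and 9 of the 10 genes matched by symbol (Dusp4 did not). The assembly named in the processing notes is the earlier Rnor_6.0, so these windows describe the annotated genes and not the mapped reads. Capitals mark matches, on either strand, to the cyclic AMP response element TGACGTCA, the AP-1 site TGANTCA, the ETS core CCGGAA, the CArG box bound by serum response factor, or the NF-kB site.
Dusp5, chr1:262543524-262543823, plus strand: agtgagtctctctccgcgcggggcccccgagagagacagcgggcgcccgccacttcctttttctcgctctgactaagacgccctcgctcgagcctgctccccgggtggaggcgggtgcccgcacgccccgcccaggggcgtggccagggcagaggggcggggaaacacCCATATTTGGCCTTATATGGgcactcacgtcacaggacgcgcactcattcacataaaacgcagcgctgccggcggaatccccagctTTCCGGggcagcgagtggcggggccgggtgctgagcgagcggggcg
Dusp6, chr7:35979354-35979653, plus strand: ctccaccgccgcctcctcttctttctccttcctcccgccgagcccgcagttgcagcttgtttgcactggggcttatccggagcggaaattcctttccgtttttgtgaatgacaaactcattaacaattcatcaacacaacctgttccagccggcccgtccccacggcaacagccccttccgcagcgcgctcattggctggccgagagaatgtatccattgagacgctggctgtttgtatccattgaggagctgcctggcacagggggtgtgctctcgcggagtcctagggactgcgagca
Spry2, chr15:89111877-89112176, minus strand: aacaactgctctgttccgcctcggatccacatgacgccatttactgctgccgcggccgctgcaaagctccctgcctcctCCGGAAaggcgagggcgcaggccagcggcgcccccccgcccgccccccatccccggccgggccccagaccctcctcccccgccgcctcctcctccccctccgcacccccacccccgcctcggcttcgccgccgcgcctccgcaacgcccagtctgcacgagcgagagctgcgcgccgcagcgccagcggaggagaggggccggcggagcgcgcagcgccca
Dusp1, chr10:17184603-17184902, plus strand: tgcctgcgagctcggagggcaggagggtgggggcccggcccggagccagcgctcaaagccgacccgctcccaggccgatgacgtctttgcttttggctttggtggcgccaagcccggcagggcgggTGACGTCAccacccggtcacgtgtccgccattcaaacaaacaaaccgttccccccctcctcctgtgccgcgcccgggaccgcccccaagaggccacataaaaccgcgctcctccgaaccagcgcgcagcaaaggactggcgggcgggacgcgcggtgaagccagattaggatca

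The Dusp5 window held 2 CArG boxes directly beside each other, CCATATTTGG at -82 to -73 and CCTTATATGG at -72 to -63, counted from the start site at 1. A CArG box was found in 1.64% of the 33469 RefSeq promoters of this length, and Dusp5 was the only 1 of the 9 genes with a match. The ETS core, which RefSeq promoters held in 15% of cases, matched in Dusp5, Spry2 and Spry4, at 5 to 10, at -171 to -166 and at -81 to -76. A second RefSeq start of Spry2, at chr15:89109793-89110092, held none of these motifs. Dusp1 had the cyclic AMP response element at -124 to -117, a motif in 1.83% of promoters. No window of the 9 genes matched the AP-1 site (7.33% of promoters) or the NF-kB site (7.51%), and the Dusp6 window held none of the 5 motifs. A match describes letters in the window only.

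Among the inducible phosphatases of the nucleus, Dusp5 differed most between HIOP and CTL on a firm count. DUSP5 acts on ERK and holds it in the nucleus. Dusp5 had 221 counts in CTL, 1069 in HIOP and 845 in HIOP_GSK, or 13.7, 62.4 and 55.5 CPM. HIOP was thus 4.55-fold above CTL (3.93 to 5.28), a log2 ratio above that of 97.0% of the compared genes. HIOP_GSK was 1.12-fold below HIOP (1.03 to 1.23) and 4.04-fold above CTL (3.48 to 4.71), so both injured libraries lay well above the control.

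Dusp1 behaved differently from Dusp5. It encodes MKP-1, an immediate early phosphatase of p38, JNK and ERK. Its counts were 622 in CTL, 878 in HIOP and 490 in HIOP_GSK, or 38.6, 51.3 and 32.2 CPM. HIOP was 1.33-fold above CTL (1.20 to 1.47), or 1.16-fold on deposited TPM. HIOP_GSK was 1.59-fold below HIOP (1.42 to 1.78) and 1.20-fold below CTL (1.06 to 1.35), so that HIOP was the highest and HIOP_GSK the lowest of the libraries. The ratio of HIOP_GSK to HIOP exceeded that of only 3.7% of the compared genes, which placed Dusp1 lowest among the 10 in that comparison, although it remained within 2-fold.

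Dusp4, which encodes another nuclear phosphatase of the same kinases, was the 1 gene of the group whose whole interval lay below 1 in HIOP over CTL. It had 705 counts in CTL, 458 in HIOP and 472 in HIOP_GSK, or 43.8, 26.8 and 31.0 CPM. HIOP was 1.64-fold below CTL (1.45 to 1.85) and HIOP_GSK was 1.41-fold below CTL (1.25 to 1.59). The injured libraries were close to each other, with a ratio of HIOP_GSK to HIOP of 1.16 (1.02 to 1.32).

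Dusp2, also called PAC-1 and known from activated immune cells, was barely detected. It had 1 count in CTL, 12 in HIOP and 28 in HIOP_GSK, or 0.0621, 0.701 and 1.84 CPM, and passed the limit of 1 CPM only through HIOP_GSK. The ratio of HIOP to CTL was 11.3, with an interval from 1.67 to 482, and that of HIOP_GSK to HIOP was 2.63 (1.29 to 5.67). HIOP_GSK was therefore the highest library for Dusp2, unlike for Dusp5, Dusp6 and Spry2, for which HIOP was the highest. Markers of neutrophils moved in parallel from CTL to the injured libraries. Their 6 genes summed to 1.18 CPM in CTL, 115 CPM in HIOP and 134 CPM in HIOP_GSK, with 4, 2 and 1 of the 6 at 0 counts. On deposited TPM the same genes summed to 0.66, 282 and 228, so that the order of the injured libraries turned with the scale. From HIOP to HIOP_GSK, Csf3r went from 360 to 933 counts, S100a8 from 405 to 306 and S100a9 from 984 to 579. Elane was at 0 in CTL and HIOP, Mpo in all libraries, and S100a8 and Cxcr2 in CTL only. The 6 matched microglia and macrophage markers summed to 33.6, 25.8 and 80.5 CPM, and none was at 0. In HIOP over CTL, 3 of the 6 reached 2-fold lower and 0 reached 2-fold higher, against 8.04% and 9.0% of all compared genes. In HIOP_GSK over HIOP, 5 of the 6 reached 2-fold higher and 0 reached 2-fold lower, against 4.56% and 1.69%. The part of either cell type in the Dusp2 counts was not tested.

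Dusp6 had the highest fold of the well-counted genes. DUSP6 (MKP-3) is a cytoplasmic phosphatase selective for ERK. Its counts were 196 in CTL, 1841 in HIOP and 1224 in HIOP_GSK, or 12.2, 108 and 80.4 CPM. HIOP was 8.83-fold above CTL (7.62 to 10.3), and 7.49-fold on deposited TPM. This log2 ratio, 3.13, was above that of 98.6% of the compared genes. HIOP_GSK was 1.34-fold below HIOP (1.24 to 1.44) and 6.61-fold above CTL (5.68 to 7.72).

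The close relatives of Dusp6 and of the other listed phosphatases complete the family of typical MAPK phosphatases. Dusp7, like Dusp6 a cytoplasmic ERK phosphatase, had 1175, 2587 and 1634 counts and was 2.07-fold higher in HIOP than in CTL (1.93 to 2.22). Dusp9, the third of that class, had 0, 4 and 2 counts and was not compared. The class of cytoplasmic ERK phosphatases summed to 35.2 TPM in CTL, 103 in HIOP and 76.2 in HIOP_GSK. The inducible nuclear class, Dusp1, Dusp2, Dusp4 and Dusp5, summed to 52.4, 76.4 and 64.2 TPM. The class selective for JNK and p38, Dusp8, Dusp10 and Dusp16, differed least, at 56.2, 64.7 and 61.2 TPM.

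Dusp10, or MKP-5, was the member of that last class in the group. It had 356 counts in CTL, 472 in HIOP and 511 in HIOP_GSK, or 22.1, 27.6 and 33.6 CPM. The libraries were ordered CTL, HIOP, HIOP_GSK, with HIOP 1.25-fold above CTL (1.08 to 1.43) and HIOP_GSK 1.22-fold above HIOP (1.07 to 1.38). Over CTL, HIOP_GSK was 1.52-fold higher (1.32 to 1.74). Its relatives were also within 2-fold in HIOP over CTL, with Dusp8 at 1.12-fold (1.02 to 1.22) and Dusp16 at 1.35-fold (1.16 to 1.56).

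Of the Sprouty genes, Spry2 stood far from the others. Sprouty proteins block the step from receptor tyrosine kinases to RAS and RAF. Spry2 had 182 counts in CTL, 1366 in HIOP and 805 in HIOP_GSK, or 11.3, 79.8 and 52.9 CPM. HIOP was 7.06-fold above CTL (6.04 to 8.28), or 5.70-fold on deposited TPM, and the log2 ratio was above that of 98.1% of the compared genes. HIOP_GSK was 1.51-fold below HIOP (1.38 to 1.65) and 4.68-fold above CTL (3.98 to 5.53).

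Spry1, Spry4 and Spred1 did not follow Spry2. Spry1 had 97, 79 and 123 counts in CTL, HIOP and HIOP_GSK, or 6.03, 4.61 and 8.08 CPM. Its ratio of HIOP to CTL was 0.766, with an interval that spans 1 (0.562 to 1.04), and HIOP_GSK was 1.75-fold above HIOP (1.31 to 2.35), or 1.40-fold on TPM. HIOP had the lowest value for Spry1, though it was not apart from CTL within counting error, whereas it was the highest library for Spry2. Spry4 had 229, 310 and 281 counts, or 14.2, 18.1 and 18.5 CPM. It was 1.27-fold higher in HIOP than in CTL (1.07 to 1.52), and HIOP_GSK and HIOP were alike within counting error, at a ratio of 1.02 (0.865 to 1.20).

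Spred1, a Sprouty-related protein that brings neurofibromin to RAS, had 716 counts in CTL, 695 in HIOP and 762 in HIOP_GSK, or 44.5, 40.6 and 50.1 CPM. Its ratio of HIOP to CTL was 0.913, with an interval that spans 1 (0.821 to 1.01). HIOP_GSK was 1.23-fold above HIOP (1.11 to 1.37), so that the libraries lay within a narrow range. Together Spry1, Spry4 and Spred1 summed to 38.4 TPM in CTL, 34.04 in HIOP and 44.1 in HIOP_GSK, whereas Spry2 alone went from 8.28 to 47.2 and 32.2 TPM.

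For Dusp5, Dusp6 and Spry2, HIOP_GSK lay closer to HIOP than to CTL. Of the 10 genes, 1 was higher by 2-fold or more (Dusp2, on 12 and 28 counts), compared with 4.56% of all compared genes, and 0 were lower by that much, compared with 1.69%. The counting interval lay wholly below 1 for Dusp1, Dusp5, Dusp6 and Spry2, 4 of 10 against 20% of all compared genes, and wholly above 1 for Dusp2, Dusp4, Dusp10, Spry1 and Spred1, 5 of 10 against 20.1%. For Spry4 it spanned 1. The median log2 ratio was 0.12, and -0.002 over all compared genes. Both comparisons use the HIOP library, so a high or low count there enters each of them in opposite directions.

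Against CTL, Dusp2, Dusp5, Dusp6 and Spry2 reached 2-fold higher in HIOP_GSK, 4 of 10 compared with 10.4% of all compared genes, and 0 reached 2-fold lower, compared with 6.32%. Dusp2 passed the filter only through HIOP_GSK, which favours its call in both comparisons with that library, and with the filter at 5 CPM the count was 3. Dusp1 and Dusp4 were the genes with an interval wholly below 1, 2 of 10 against 31.7% of all compared genes. For the other 8 the interval lay wholly above 1, against 33.1%. In HIOP over CTL, 7 of 10 had an interval wholly above 1, against 32.7%, and 1 wholly below, against 31.9%. Shares of this size over all genes show that an interval of counting error alone is passed often between single libraries.

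**Figure D3:**
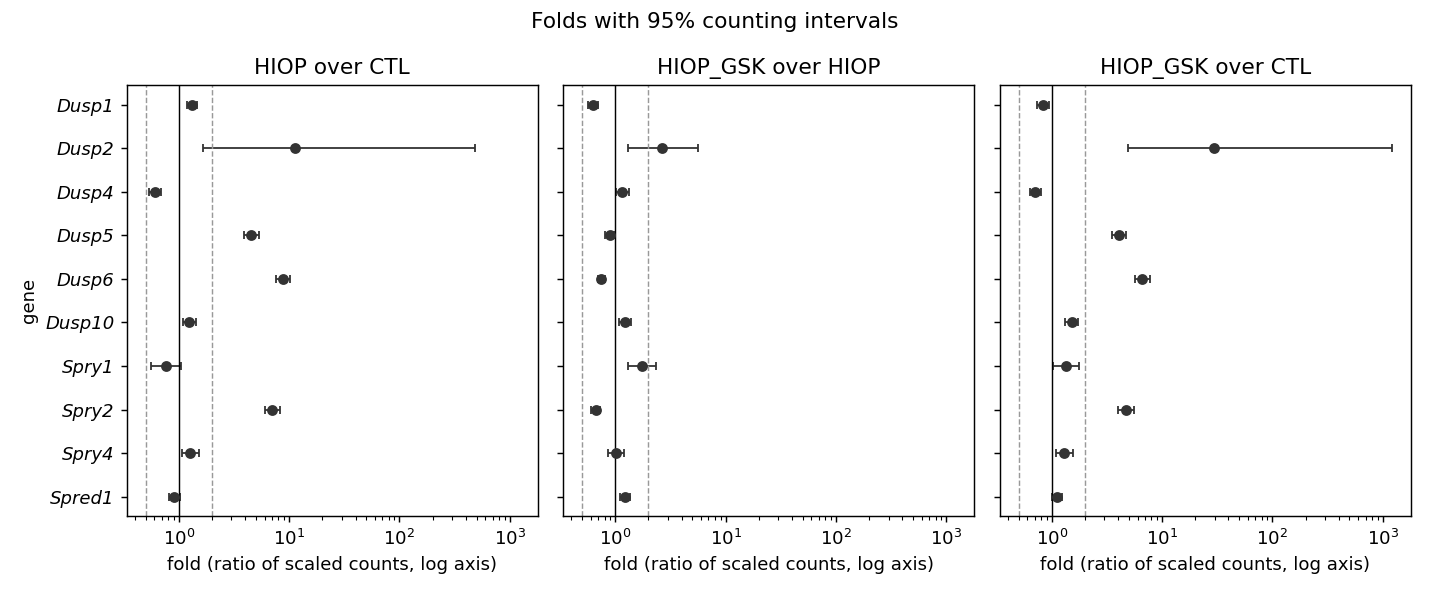
Fold of each gene in HIOP over CTL, HIOP_GSK over HIOP and HIOP_GSK over CTL, on a log axis, with 95% exact intervals for counting error. The solid line marks 1 and the dashed lines mark 2-fold in either direction. Dusp5, Dusp6 and Spry2 lie past 2-fold in both comparisons with CTL and between 1.12-fold and 1.51-fold lower in HIOP_GSK than in HIOP.

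Other feedback inhibitors of receptor and RAS signalling were mostly within 2-fold, as compared genes were in general. Of 8 such genes, 1 exceeded CTL by 2-fold or more in HIOP and 0 lay below it by as much, with a median log2 ratio of 0.08. The shares of all compared genes were 9.0% and 8.04%, and in a list this short the counts are not set apart from them. The higher gene was Spred3, a paralog of Spred1, with 98, 415 and 309 counts, at 3.98-fold (3.19 to 5.01). Errfi1, an inhibitor of the EGF receptor, was 1.90-fold higher (1.69 to 2.14). Of the whole Sprouty and Spred family, Spry2, Spry4 and Spred3 had intervals wholly above 1 in HIOP over CTL, Spry3 and Spred2 wholly below 1, and those of Spry1 and Spred1 spanned 1. Spry3 had 65, 34 and 43 counts (log2 ratio -0.98, inside the limit). Between HIOP and HIOP_GSK none of the 8 passed 2-fold, against 4.56% higher and 1.69% lower of all compared genes. The lowest ratio of the 8 was that of Il17rd, an inhibitor of FGF signalling, 1.70-fold lower in HIOP_GSK (1.21 to 2.40).

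The RAS-ERK and JNK kinase lists held fewer genes past 2-fold than the p38 list. Over all compared genes, 9.0% reached 2-fold higher in HIOP over CTL and 8.04% reached 2-fold lower. In lists this short, the RAS-ERK and JNK counts are not set apart from those shares, and the contrast with the p38 list rests on 3 genes. In the RAS-ERK list 1 of 17 genes reached 2-fold higher in HIOP over CTL and 0 reached 2-fold lower, and the median log2 ratio was 0.07. That gene was the adaptor Shc1, at 2.12-fold (1.90 to 2.37). Mapk3, which encodes an ERK kinase, had a ratio of 1.03 (0.942 to 1.13). In the JNK list 0 of 13 passed 2-fold in either direction, with a median of -0.008.

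In the p38 list 3 of the 10 compared genes reached 2-fold higher in HIOP over CTL and 0 reached 2-fold lower. This compares with 9.0% and 8.04% of all compared genes, and the median log2 ratio of the list was 0.09. Map3k6, a stress-activated kinase upstream of p38 and JNK, had 68, 701 and 332 counts and was 9.69-fold higher (7.55 to 12.6). Mapkapk3, a kinase activated by p38, was 3.62-fold higher (3.04 to 4.33), and Mapk14, which encodes p38 alpha, was 2.41-fold higher (2.28 to 2.54). Other genes of the list went the other way, with Map2k6 1.53-fold lower (1.31 to 1.79) and Mapk11 1.53-fold lower (1.20 to 1.95). Map2k3, an activator of p38, had 0 counts and 0 TPM in every library and gives no value here. Between HIOP and HIOP_GSK no gene of the RAS-ERK, p38 or JNK lists passed 2-fold. Of all compared genes, 4.56% were higher and 1.69% lower by that much in HIOP_GSK, so such short lists are not set apart. Map3k6 was 1.88-fold lower in HIOP_GSK (1.64 to 2.15).

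Genes known to respond to ERK had the highest median of the pathway lists, which were chosen with earlier results of these data known. In HIOP over CTL, 9 of 13 reached 2-fold higher and 1 reached 2-fold lower, against 9.0% and 8.04% of all compared genes. Their median log2 ratio was 2.21. Myc, a growth-promoting transcription factor gene, had 19, 842 and 421 counts and was 41.7-fold higher (26.5 to 69.6). Phlda1, a frequent companion of Dusp6 and Spry2 in readouts of ERK output, had 210, 1038 and 462 counts and was 4.65-fold higher (4.003 to 5.42). Etv1, Etv4 and Etv5 encode ETS factors that commonly accompany Dusp6 and Spry2 downstream of FGF receptors, and they did not share their high level in HIOP. Etv1 was 2.11-fold lower in HIOP than in CTL (1.85 to 2.42), Etv4 had 219, 171 and 145 counts, and Etv5 was 1.26-fold higher (1.08 to 1.48).

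In HIOP_GSK over HIOP, 0 of the 13 reached 2-fold higher and 2 reached 2-fold lower, against 4.56% and 1.69% of all compared genes. The median was -0.30. The lower genes were Fosl1, with 3, 2172 and 656 counts, and Egr1, with 2477, 7840 and 2756 counts, which encode an AP-1 subunit and an immediate early zinc finger factor. Phlda1 was just inside the limit, at a log2 ratio of -0.995. Etv5 and the cyclin gene Ccnd1 went the other way, at 1.88-fold (1.65 to 2.14) and 1.58-fold higher (1.48 to 1.69). Dusp6, at 1.34-fold lower, and Spry2, at 1.51-fold lower, thus lay between these ERK-responsive genes.

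**Figure D4:**
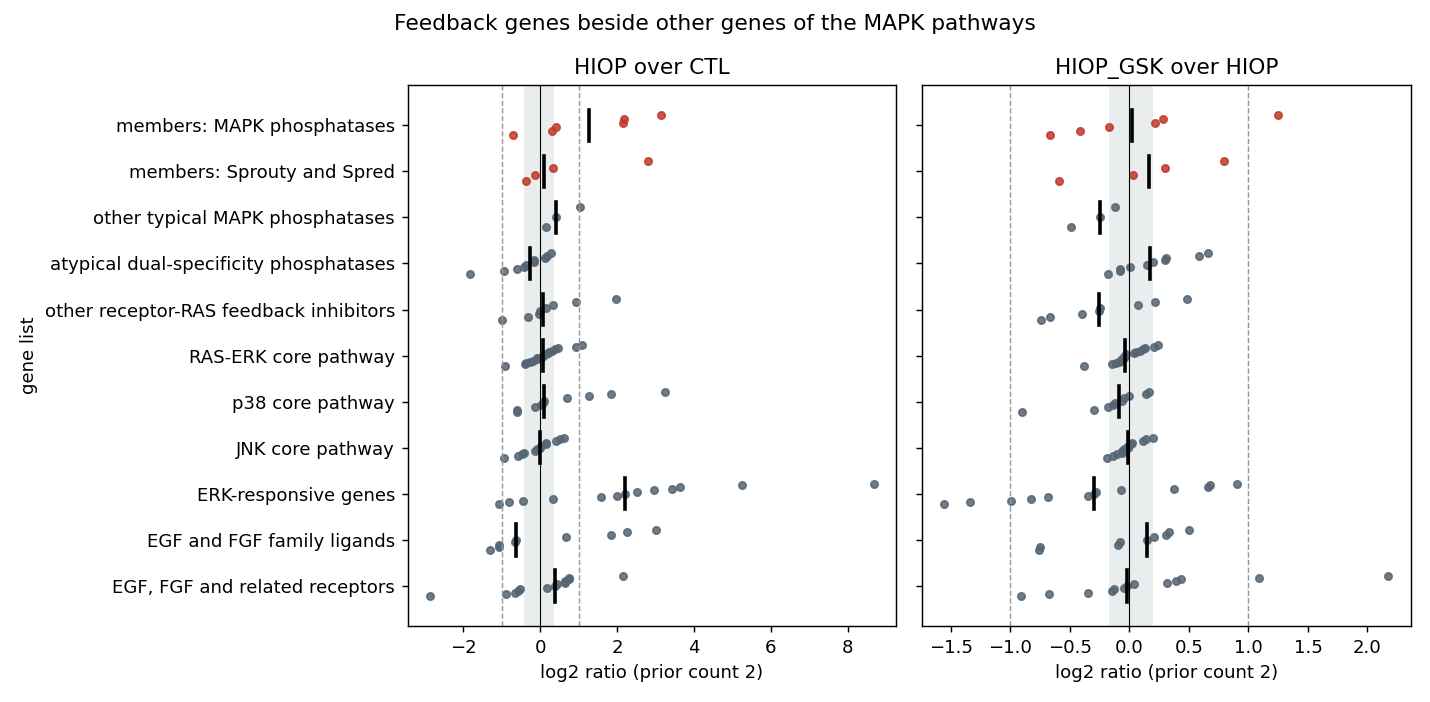
Log2 ratio (prior count of 2) of each compared gene, by list, for HIOP over CTL (left) and HIOP_GSK over HIOP (right). Each point is a gene, black bars are list medians, dashed lines mark 2-fold, and the grey band holds the middle 50% of all compared genes. The 10 feedback genes (red) reach from -0.71 to 3.13 in HIOP over CTL, the RAS-ERK and JNK lists have medians of 0.07 and -0.008 with genes from -0.92 to 1.08 and from -0.93 to 0.63, and ERK-responsive genes have a median of 2.21.

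EGF and FGF family genes and growth factor receptors were mixed. Of 9 compared genes in the list of EGF and FGF family ligands, 3 reached 2-fold higher in HIOP over CTL and 3 reached 2-fold lower. The shares of all compared genes were 9.0% and 8.04%, and the median log2 ratio of the list was -0.63. Fgf2, basic FGF, had 67, 585 and 738 counts and was 8.21-fold higher (6.37 to 10.7), and Hbegf, a ligand of the EGF receptor, had 359, 1383 and 724 counts and was 3.62-fold higher (3.22 to 4.08). Btc, another EGF receptor ligand, was 4.92-fold higher (3.64 to 6.75). The lower genes were Egf, Fgf1 and Fgf13, between 2.09-fold and 2.57-fold. Fgf13 encodes an intracellular member of the FGF family and not a secreted receptor ligand. Between HIOP and HIOP_GSK no gene of this list passed 2-fold, against 4.56% higher and 1.69% lower of all compared genes. Hbegf was 1.70-fold lower in HIOP_GSK (1.55 to 1.86) and Fgf2 1.42-fold higher (1.27 to 1.58).

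Among 13 receptor genes, 1 reached 2-fold higher and 1 reached 2-fold lower in HIOP over CTL, and the median was 0.40. These counts are near the shares of all compared genes, 9.0% and 8.04%. Fgfr1 had 474, 2266 and 1582 counts and was 4.49-fold higher (4.07 to 4.97), a profile with HIOP highest and HIOP_GSK between, as for Dusp6. Fgfr4 had 197, 27 and 115 counts and was 7.76-fold lower in HIOP (5.17 to 12.1). In HIOP_GSK over HIOP, Fgfr4 at 4.79-fold (3.13 to 7.58) and Erbb3 at 2.16-fold (1.63 to 2.88) reached 2-fold higher and 0 reached 2-fold lower. Of all compared genes, 4.56% and 1.69% did so.

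The genes with levels most like those of Dusp6 over the 3 libraries were Gadd45g, Fgl2, Atf3, Ifitm3 and Jak3. Likeness was the Euclidean distance between log2 CPM values centred on each gene's mean, among 12306 other genes with at least 20 counts in every library, and the distances of these 5 were 0.104, 0.106, 0.109, 0.121 and 0.173. Within the group, Spry2 was nearest at 0.357, with 31 of the 12306 genes nearer, and Dusp5 followed at 0.70, with 100 nearer. Dusp2 does not meet the minimum of 20 counts and was left out here, and the other 6 members lay between 2.07 and 2.91. With 3 points per gene, such a distance describes these libraries only.

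The libraries also differed in markers of other tissues and cells. Over all compared genes, 9.0% reached 2-fold higher and 8.04% reached 2-fold lower in HIOP over CTL. In HIOP_GSK over HIOP, 4.56% and 1.69% did so. Lens markers took 0.107% of counts in CTL, 0.302% in HIOP and 1.24% in HIOP_GSK, and 8 of 9 reached 2-fold higher in HIOP over CTL and 9 of 9 in HIOP_GSK over HIOP, with none at 0. The 6 matched corneal and surface epithelium markers summed to 562, 223 and 260 CPM, with Kera at 0 in HIOP. Pax6, which neural retina also expresses, alone held 297.9, 210.7 and 204.8 CPM of these sums and stayed within 2-fold. The sums therefore understate the other markers' differences. In HIOP over CTL, 5 of the 6 reached 2-fold lower and 0 reached 2-fold higher, with a median log2 ratio of -4.18. In HIOP_GSK over HIOP, 4 of the 6 reached 2-fold higher and 0 reached 2-fold lower, with a median of 1.85. Müller glia markers summed to 3097, 1943 and 2450 CPM over 7 genes, none at 0. Glul alone held 1746, 942 and 1059 CPM of these sums and stayed within 2-fold, so the sums can hide larger differences of other markers. In HIOP over CTL, 4 of the 7 reached 2-fold lower and 1 reached 2-fold higher. In HIOP_GSK over HIOP, 3 of the 7 reached 2-fold higher and 0 reached 2-fold lower. Rod markers summed to 27162, 26265 and 18580 CPM over 8 genes, none at 0, and ganglion cell markers to 541, 252 and 271 CPM over 7 genes, none at 0. In HIOP over CTL, 5 of the 7 ganglion cell markers reached 2-fold lower and 0 reached 2-fold higher. Of the 8 rod markers, 0 passed 2-fold in either direction there. The 4 matched red blood cell markers summed to 130, 293 and 138 CPM, none at 0, and were thus highest in HIOP, as Dusp1, Dusp5, Dusp6 and Spry2 were. Of these 4 markers, 4 reached 2-fold higher in HIOP over CTL and 2 reached 2-fold lower in HIOP_GSK over HIOP. Pigment epithelium markers summed to 333, 137 and 195 CPM over 5 genes, and 4 of 4 compared genes reached 2-fold lower in HIOP over CTL. The part of these markers' cells in the levels of Dusp6, Spry2 and the other feedback genes was not tested.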

How the data were processed

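Each library's table, as deposited by the authors, holds a count and a TPM value for 32883 Ensembl genes. The tools STAR (2.5.4b) and RSEM (1.3.1) and the build Rnor_6.0 are named, per the submitters' processing notes, and the role of each and the strand setting are not given in the sources used here. The deposited counts are whole numbers, not normalized. The deposited TPM values sum to 1e+06 per library and do not follow the counts for every gene: in CTL, 566 genes had at least 20 counts and 0 TPM. The 10 members and all lists were chosen with earlier results of these data known. Symbols were matched to rows, by synonym where needed, giving 174 of 177 listed genes. Counts were scaled with TMM factors (edgeR 4.0.16, R 4.3.3) of 1, 0.994 and 1.006 in the order CTL, HIOP, HIOP_GSK. Genes that reached 1 CPM in any library were compared. A gene counted as higher or lower at 2-fold on log2 CPM with a prior count of 2; printed folds carry no prior and an exact Clopper-Pearson 95% interval. The functions were tested on simulated data. From each pathway list, up to 3 genes per direction with the interval bound farthest from 1 could be named, for HIOP over CTL and HIOP_GSK over HIOP. The likeness rule took the 5 genes nearest to the member with the highest lower bound. Dusp9, Map2k3 and a few others were named after their values were seen. Alternatives were total counts, DESeq2 1.42.0 size factors, scaling without mitochondrial and the 20 most abundant genes, TPM with a pseudocount of 0.5, no filter, 5 CPM, prior counts of 0.5 and 10, and a 1.5-fold limit. Reads carry no molecular identifiers, so intervals cover counting error only.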

Additional observations from a re-analysis of the deposited data

How the results depend on the processing

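No paired analysis was possible because each group has 1 library, and for the same reason no library could be left out. Dusp5, Dusp6 and Spry2 were at least 2-fold higher over CTL, in HIOP and in HIOP_GSK, under each alternative tried. The log2 ratios of HIOP over CTL ranged from 1.97 to 2.18 for Dusp5, from 2.81 to 3.14 for Dusp6 and from 2.44 to 2.82 for Spry2, each lowest with deposited TPM. Dusp2 depends on the setting: in HIOP over CTL its log2 ratio was 0.95 with a prior count of 10 and 0.90 with TPM, which leaves 3 of 10 genes at 2-fold in place of 4. The filter at 5 CPM removes Dusp2 from the compared genes and leaves 3 of the remaining genes at 2-fold. In HIOP_GSK over HIOP the number of genes at least 2-fold higher was 1, but 0 with TPM, with the filter at 5 CPM and with a prior count of 10. At a limit of 1.5-fold it was 2 (Dusp2 and Spry1), and 2 genes were lower (Dusp1 and Spry2) in place of 0, while in HIOP over CTL 1 gene (Dusp4) was lower in place of 0. Of the 180 log2 ratios of the 10 genes under the alternatives, 172 stayed within the counting interval, 8 left it and 0 changed sign. The scaling alternatives on counts hardly shifted the libraries, so staying within was nearly assured for them. Those that left did so with deposited TPM, and Dusp2 also with a prior count of 10. With TPM they were Dusp1 and Dusp5 in HIOP over CTL, Dusp2 in HIOP_GSK over CTL, and Dusp6 and Spry2 in both comparisons with CTL.

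The counts over all genes moved more. The number of compared genes changed as well, from 15543 to 21973 without the filter and to 12613 at 5 CPM, so these counts are not shares of the same total. Without the filter they were 2138 lower (in place of 1250) in HIOP over CTL, 1462 higher and 704 lower (709 and 263) in HIOP_GSK over HIOP, and 2551 higher and 1808 lower (1623 and 983) in HIOP_GSK over CTL. With the filter at 5 CPM they were 791 lower, 346 higher and 111 lower, and 1063 higher and 583 lower in the same order. At 1.5-fold they were 2508 higher (1399) and 2733 lower, 1504 and 749, and 2739 and 2585. With a prior count of 10, 153 genes were lower in HIOP_GSK over HIOP.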

Other observations

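Atypical dual-specificity phosphatases, small relatives that lack the MAPK docking domain, were mostly within 2-fold in the libraries. Of 10 compared genes, 0 reached 2-fold higher and 1 reached 2-fold lower in HIOP over CTL, against 9.0% and 8.04% of all compared genes. In a list this short, these counts are not set apart from those shares. The median log2 ratio was -0.26. Inside the limit, Dusp19, Dusp22, Dusp23 and Dusp26 had intervals wholly below 1, and Dusp12 had one wholly above 1. Over all compared genes, 31.9% lay wholly below and 32.7% wholly above. Dusp23 was 2.01-fold lower on 34 and 18 counts, but inside the limit with the prior count. Dusp15 was the lower gene, with 253, 75 and 83 counts in CTL, HIOP and HIOP_GSK, 3.59-fold lower in HIOP (2.76 to 4.71). Dusp22, a regulator of JNK signalling, had 153, 107 and 151 counts. It was 1.52-fold lower in HIOP than in CTL (1.18 to 1.97) and in HIOP_GSK over HIOP its ratio was 1.59 (1.23 to 2.05). None of the 10 passed 2-fold in HIOP_GSK over HIOP, against 4.56% higher and 1.69% lower of all compared genes. The median there was 0.17.

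The RAS gene Nras had 319, 651 and 564 counts and was 1.92-fold higher in HIOP than in CTL (1.68 to 2.20). Among the JNK genes, Mapk10, the neuronal JNK, was 1.90-fold lower in HIOP than in CTL (1.71 to 2.12), and its upstream kinase Map2k4 was 1.55-fold higher (1.40 to 1.71).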
